A study of Mus musculus with 18 samples.

Results

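The genes described are the translation initiation factors, taken as every entry of the expression table whose symbol starts with Eif and a digit from 1 to 6. The rule found 54 of 36528 entries and left out 3 further entries, Eif2s3x, Eif2s3y and symbols that mark a pseudogene. The choice used names only and no measured value. The RNA came from splenic CD4 T cells of female NZB/W F1 mice, which were purified by removing the other cells, and 18 sequencing libraries fall into 6 groups of 3. The NZB/W F1 hybrid spontaneously develops disease like human lupus, and the mice were 21 to 27 weeks old with proteinuria of 30 to 100 mg/dL. All cells were cultured for 48 hours with IL-2 at 10 U/mL and with an IgG1 antibody at 25 µg/mL, either anti-Ox40 or an isotype control (control Ig). Beads carrying antibodies to CD3 and CD28, which stimulate the T cell receptor and its co-receptor, were added at 0 per cell (no TCR in the labels, here no beads), at 0.1 per cell (low) or at 1 per cell (high). Each antibody was combined with each bead dose, and control Ig at the same bead dose is the background of the antibody comparisons. The labels do not say whether the 3 libraries of a group came from separate mice, from separate wells or from 1 pool of cells, so every p-value rests on the spread among libraries, which may be technical. Replicate numbers follow accession order. Once group means were taken off, each of the 18 libraries correlated best, outside its own group, with a library of its own number. The main model does not use these numbers.

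Translation of most mRNAs starts when the factor eIF2 delivers the initiator tRNA to the small ribosomal subunit, while the large scaffold eIF3 and the small factors of the Eif1 family hold that subunit ready. The cap-binding protein Eif4e, the scaffold Eif4g1 and the helicase Eif4a1 bring in the mRNA, and the binding proteins Eif4ebp1 to Eif4ebp3 can block this step by occupying Eif4e. Eif5 and Eif5b then help to release factors and to join the large subunit, and Eif2b recharges eIF2 for the next round. Resting T cells make little protein, and activation through the T cell receptor is known to raise both the translation machinery and the rate of translation.

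Values are nRPKM, read here from the deposited name as read numbers per gene length and library size with a further normalization, so levels of genes are set side by side here. How reads shared between genes were counted is not given in the sources used. This limits such comparisons for genes that share sequence with others, such as Eif3j2, Eif4ebp3 and Eif4a1. Changes are given on the log2(nRPKM + 1) scale, each with its standard error (SE). Calls come from limma, fitted to all 13075 genes that reached an nRPKM of 1 in 3 or more libraries, with Benjamini-Hochberg adjustment and a threshold of 0.05. Of the 54 members, 51 passed this filter. The other 3 were Eif4e1b, an oocyte relative of Eif4e listed at 0 in all 18 libraries, Eif2c5, listed at 0 except for 0.02 in 1 library with anti-Ox40 and no beads, and Eif3j1, which lay between 0.256 and 0.512. Eif2c5 has an older argonaute-type name and is annotated as a long non-coding RNA, not as an initiation factor.

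The depth behind an nRPKM of 1 over 1 kb was 26.4 to 46.0 reads per library, and across genes the correlation within groups was 0.989 to 0.9947. The labelled cell type had its markers, with Cd8a at 0.008 to 0.433 nRPKM and Cd4 at 293 to 326 in control Ig without beads, 191 to 197 in control Ig with high beads and 174 to 179 in anti-Ox40 with high beads. In the same 3 groups the 2 CD8 T cell markers, Cd8a and Cd8b1, summed to 5.50 to 6.59, 4.41 to 5.95 and 4.36 to 4.71. The summed level of 7 CD4 T cell markers was 1499 to 1613, 1372 to 1469.9 and 1126 to 1212 in these 3 groups, and that of 3 nuclear RNAs was 455 to 601, 157 to 193 and 114 to 127. Both sums were thus lower with high beads than without, and lower again with anti-Ox40 at high beads. At low beads in control Ig they were 1495 to 1547 and 294 to 646, which overlapped with the levels without beads. The summed level of 12 myeloid markers was 261 to 296 in control Ig without beads and 5.72 to 12.4 with high beads. For 4 platelet markers it was 54.0 to 74.3 and 9.3 to 12.6. For 6 NK cell markers it was 53.9 to 62.3 and 55.5 to 89.4, and 75.6 to 123 in anti-Ox40 with high beads. The summed level of 8 B cell markers was highest in replicate 3 of every group, at 51.3 in control Ig with low beads. Lung epithelial RNA, from 7 markers of which 5 were at 0 in control Ig without beads, summed to 39.8 to 221 in anti-Ox40 and to 0.014 to 26.5 in control Ig with low beads. The part of these RNAs in the results below was not tested. In RNA from whole cultures, fewer cells of a type and less RNA per cell cannot be told apart.

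Initiation factor RNAs rose together with the bead dose. In control Ig, high against no beads, 43 of the 51 tested members rose and 5 fell, where 43.4% of all tested genes rose, 38.9% fell and 82.3% were called either way. The median change over the members was 0.75 on the log2 scale, and over all tested genes it was 0.04. Already at low beads 31 members had risen and 5 had fallen, beside 32.6% and 29.8% of all genes (62.3% either way), with a median of 0.30. From low to high beads 41 rose and 4 fell, beside 40.0% and 32.5% of all genes (72.5% either way), with a median of 0.41. With anti-Ox40, 44 members rose and 4 fell between no and high beads, beside 45.2% and 39.3% of all genes (84.5% either way). From no to low beads 39 rose and 6 fell, beside 37.1% and 33.7% (70.8% either way), and from low to high beads 38 rose and 4 fell, beside 40.3% and 31.2% (71.5% either way). Together the tested members made up 0.859% ± 0.007 of the summed nRPKM of a library in control Ig without beads (SD, n = 3), 1.00% ± 0.04 at low beads and 1.17% ± 0.02 at high beads. In anti-Ox40 the shares were 0.852% ± 0.016, 1.07% ± 0.02 and 1.29% ± 0.04, so the libraries with anti-Ox40 and high beads held the largest share.

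**Figure D1:**
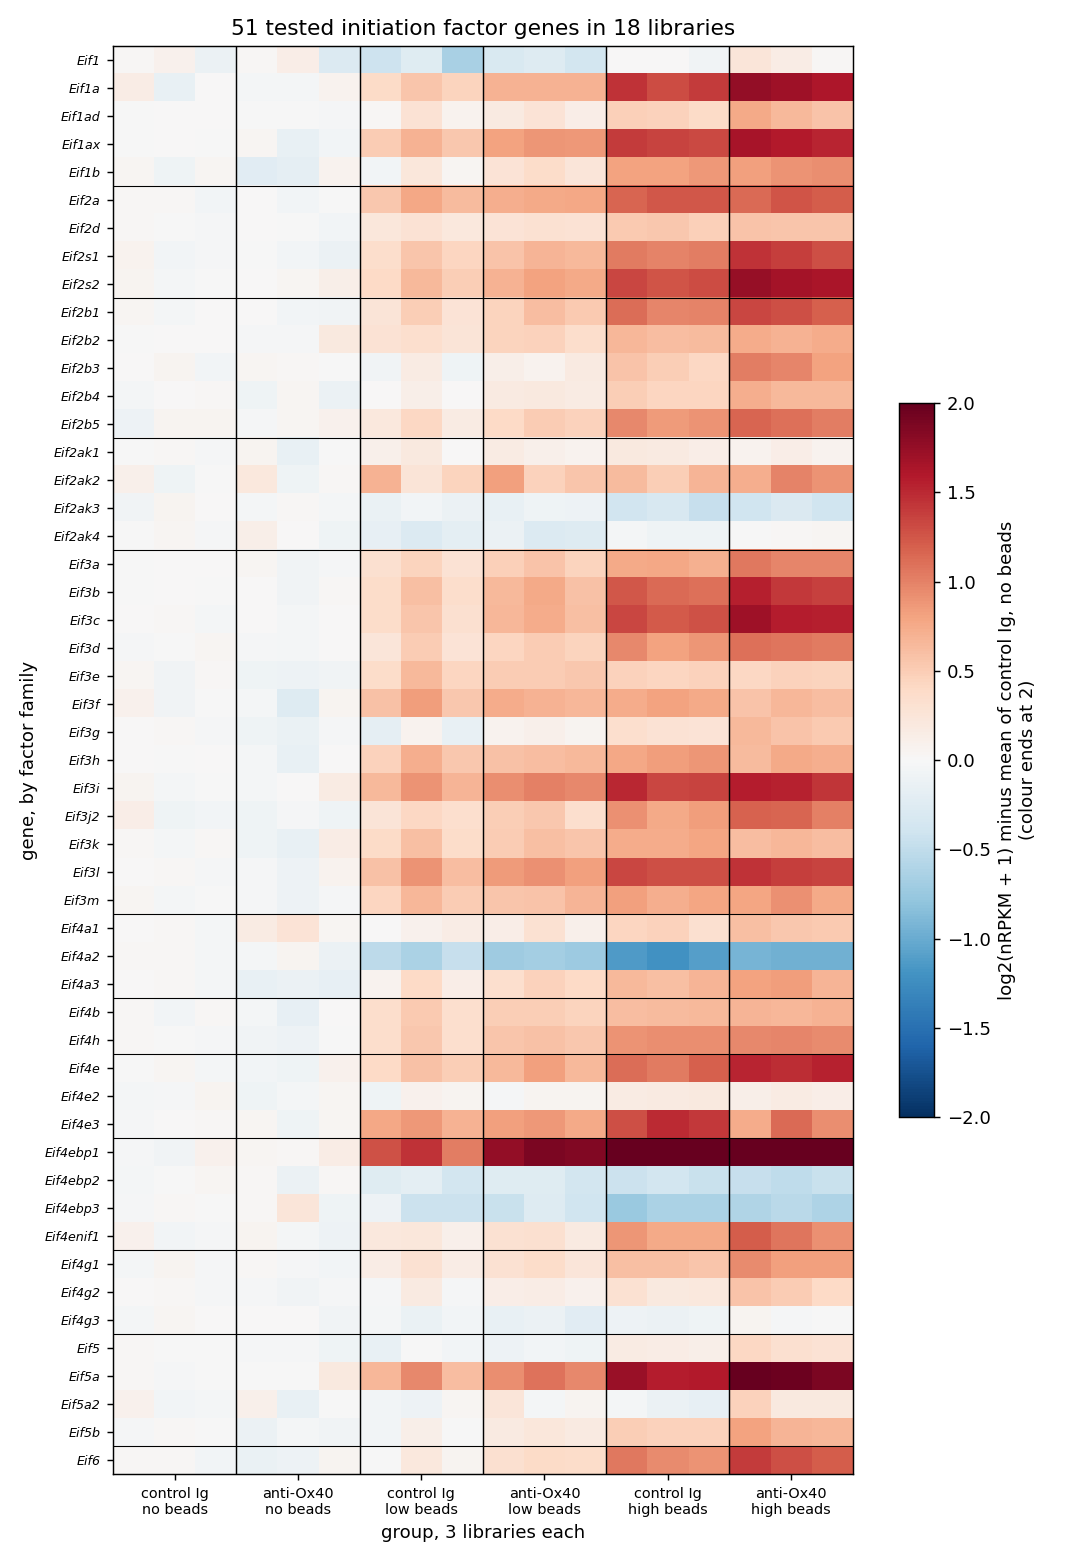
Change of each of the 51 tested initiation factor RNAs in each of the 18 libraries (columns, in 6 groups of 3) as log2(nRPKM + 1) minus its mean in control Ig without beads, with genes in rows by factor family. Colours end at the limits of the scale, which Eif4ebp1 passes. Most rows rise from no beads through low to high beads, and Eif4a2, Eif4ebp2, Eif4ebp3 and Eif2ak3 go the other way.

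The scaling of the libraries bears on this split. With quantile normalization, which moved the median change over all genes in the comparison of high with no beads from 0.04 to -0.06, 37 members rose and 9 fell in control Ig, beside 38.4% and 43.6% of all genes. Under the same scaling the step from low to high beads gave 33 higher and 8 lower in control Ig (all genes 35.8% and 34.1%), and 36 higher and 10 lower in anti-Ox40 (35.6% and 32.1%). With the mean log2 level of the 3 nuclear RNAs as a covariate, a setting chosen after seeing the data, 35 members rose and 3 fell from no to high beads in control Ig, beside 31.8% and 27.6% of all genes.

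Without beads 0 members were called by limma in the comparison of anti-Ox40 with control Ig, and 2 of 51 had an unadjusted p under 0.05. Over all genes 0.138% were called there. The 3 anti-Ox40 libraries lay above all 3 controls for 1 member and below them for 4, beside 4.08% and 5.14% of all genes. At low beads 12 members were higher with anti-Ox40 and 1, Eif4a2, was lower, where 6.15% of all genes were higher, 3.44% lower and 9.59% called in all. At high beads 26 members rose and 1, Eif4e3, fell, beside 14.4% higher, 11.6% lower and 26.0% called among all genes. The median change over the members was 0.12 at low and 0.19 at high beads, and over all genes it was 0.00 at both. At high beads all 3 anti-Ox40 libraries lay above all 3 control libraries for 38 members and below them for 4, while 23.8% and 19.5% of all genes were separated in these directions. At low beads this held for 15 members above and 1 below, beside 13.1% and 12.8% of all genes. The calls at low beads were not stable to single libraries. Their number went from 13 to 30 without replicate 2 of control Ig, to 1 without replicate 1 or without replicate 3 of control Ig, and to 5, 2 and 3 without replicates 1, 2 and 3 of anti-Ox40, and to 7 or 8 without replicate 2 or 3 of control Ig or replicate 1 of anti-Ox40 without beads, or without replicate 3 of control Ig or replicate 2 of anti-Ox40 with high beads. Of the 13, 1, Eif4ebp1, was called in all 18 fits that left out a library. Without the library with the most B cell RNA in each group, a setting chosen after seeing the data, 0 members were called at low beads and 18 at high beads. This setting leaves out replicate 3 of every group, so fewer libraries and less B cell RNA cannot be told apart. Malat1, a nuclear RNA, was at 453, 173 and 435 in the control libraries at low beads and at 213, 248 and 254 in the anti-Ox40 libraries, so replicate 2 of the control stood below the other libraries of both groups. With nuclear RNA as a covariate 2 members were called at low beads. At high beads that covariate left 21 members higher and 4 lower, beside 11.4% of all genes in each direction, and the calls of Eif1ad, Eif2b1, Eif2b5, Eif3d, Eif3j2 and Eif4enif1 were lost. The part of the T cell markers in these differences was not tested.

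**Figure D2:**
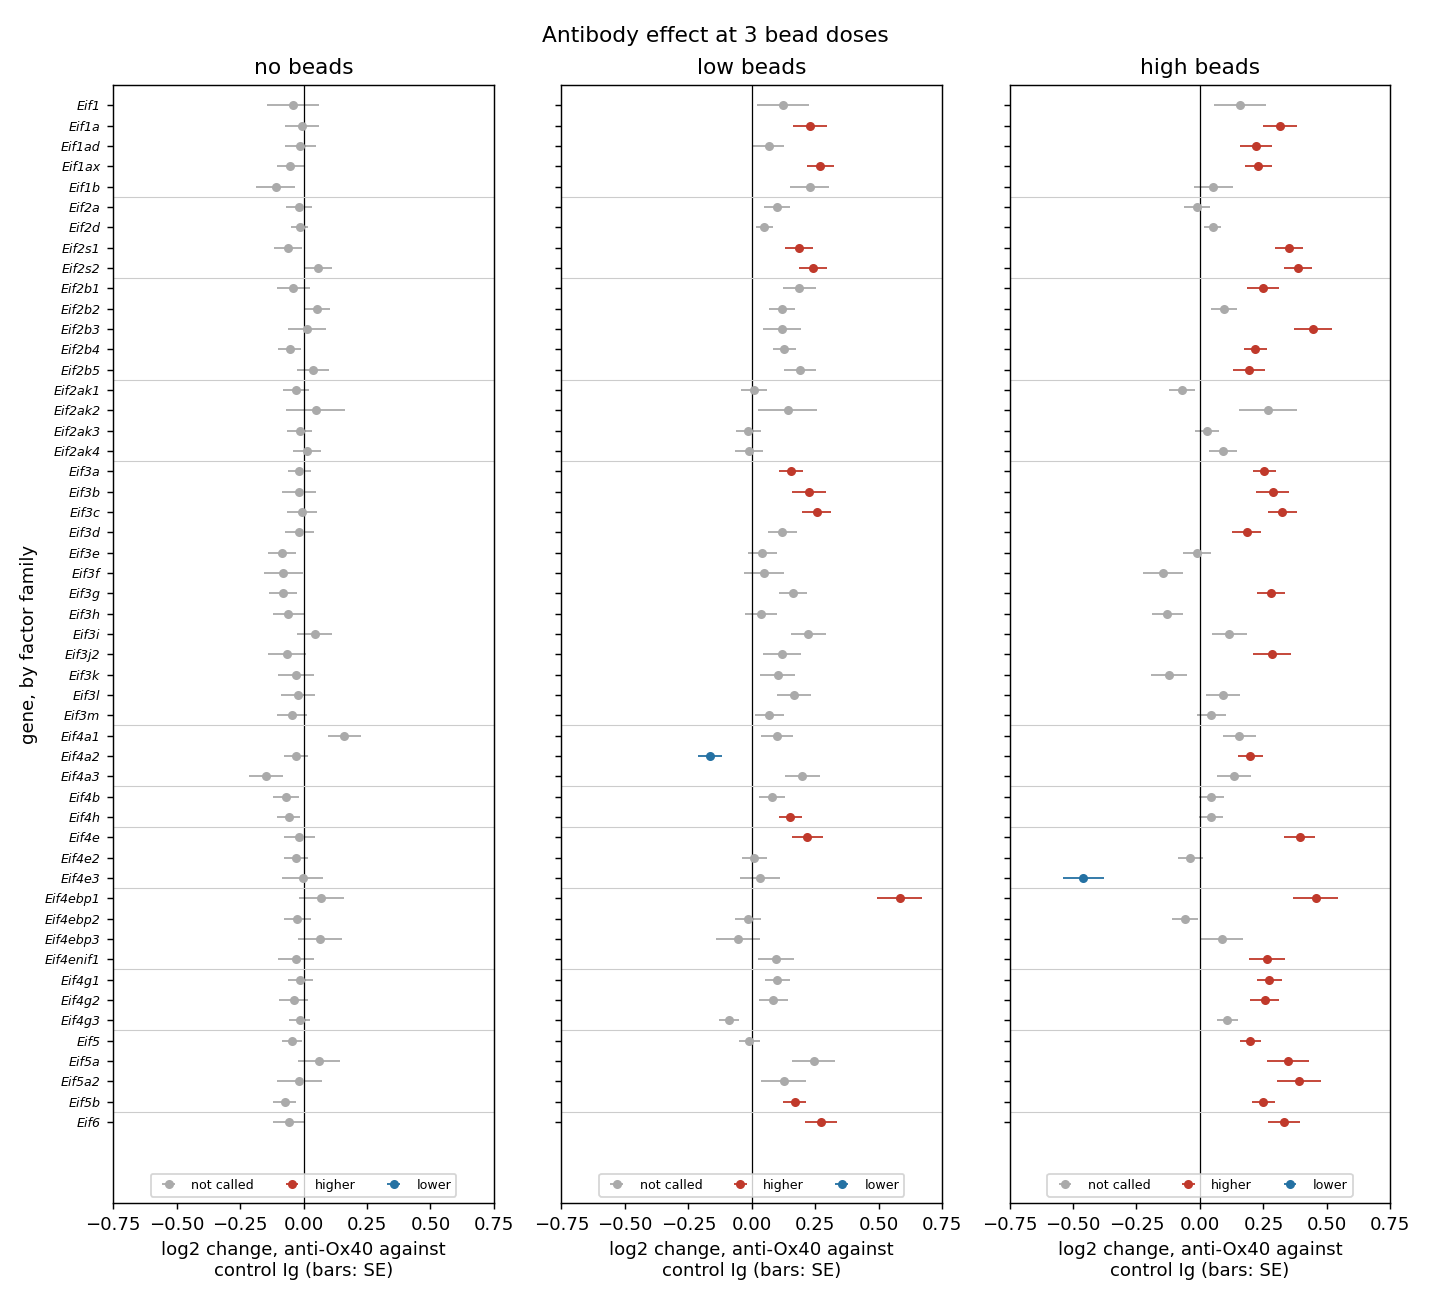
Change with anti-Ox40 against control Ig for each tested member (rows, by family) without beads, at low and at high beads, as a difference of log2(nRPKM + 1). Bars are SE, and red and blue points mark genes called higher or lower. Without beads no point is coloured, and at high beads 26 points are red and 1, Eif4e3, is blue.

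Whether the antibody effect differed between bead doses was tested in the same model. Between high and no beads the effect differed for 20 members, 19 of them with a higher and 1 with a lower value at high beads, where 6.40% and 4.70% of all genes differed in these directions and 11.1% in all. Between low and no beads 0 members differed by limma, with 17 at an unadjusted p under 0.05, and 0.268% of all genes were called (0.260% higher, 0.00765% lower). Between high and low beads 2 members differed, Eif4a2 with a higher effect at high beads and Eif4e3 with a lower one, where 3.17% of all genes were called (1.47% higher, 1.70% lower). Without replicate 2 of control Ig at low beads 20 members differed between low and no beads and 6 between high and low beads. The difference of Eif4e3 between high and low beads was lost without replicate 3 of control Ig at low beads, any anti-Ox40 library at low beads, replicate 2 or 3 of control Ig at high beads or replicate 1 of anti-Ox40 at high beads. The 20 calls between high and no beads fell to 6 without replicate 1 of anti-Ox40 at high beads, to 11 and 8 without replicates 2 and 3 of control Ig at high beads, and to 13 without replicate 1 of control Ig without beads. None of the 20 was called without the libraries with the most B cell RNA, although 0 reversed direction under the settings run. The B cell setting leaves out replicate 3 of every group, so fewer libraries and less B cell RNA cannot be told apart.

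Among the factors that open the small subunit for scanning, Eif1a and Eif1ax, both coding for eIF1A, rose most. Eif1a (GRCm38, chromosome 18, 46597704 to 46610225) was at 12.4, 9.86 and 11.1 nRPKM in control Ig without beads, at 14.8, 16.8 and 15.5 at low beads and at 31.8, 28.9 and 30.7 at high beads. In anti-Ox40 cultures the values were 10.7, 10.7 and 11.7, then 18.5, 18.6 and 18.5, and at high beads 39.99, 38.1 and 36.2. The bead groups did not overlap, and at low and high beads every anti-Ox40 library exceeded every control library. Eif1a rose by 1.38 (SE 0.07, adjusted p = 1.35e-11) from no to high beads in control Ig and by 0.31 (SE 0.07, adjusted p = 0.00288) with the antibody at high beads. Its X-linked copy Eif1ax was more abundant, at 43.1 ± 0.36 nRPKM without and 112 ± 3.32 with high beads in control Ig, and 132 ± 5.86 with anti-Ox40 and high beads.

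Eif1, which guards the choice of the start codon, behaved differently. In control Ig it was at 43.7, 45.5 and 39.5 nRPKM without beads, at 32.0, 36.0 and 27.1 at low beads and at 42.9, 43.2 and 40.5 at high beads. It thus fell at low beads (-0.43, SE 0.10, adjusted p = 0.00172), rose again from low to high beads (0.41, SE 0.10, adjusted p = 0.00192), and its levels without and with high beads overlapped (-0.02, SE 0.10, adjusted p = 0.86). The anti-Ox40 libraries gave 43.7, 47.0 and 35.0 without beads, 34.4, 35.6 and 33.0 at low and 50.9, 47.4 and 43.6 at high beads, and the antibody call was not made at any dose. Its paralog Eif1b went from 37.6 ± 1.81 to 67.5 ± 1.87 nRPKM in control Ig. Eif1ad, a gene with an eIF1A-like domain, went from 23.5 ± 0.19 to 32.2 ± 1.1, and both rose by the test. Of the 50-base stretches of Eif1 transcripts, 19.2% also occur in transcripts of other genes, chiefly Eif1 pseudogenes, so part of its signal cannot be assigned with certainty.

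Of eIF2 the alpha and beta subunits are members, and both rose with beads and again with the antibody. Eif2s2, the beta subunit (chromosome 2, 154871410 to 154892906), was at 13.3, 12.3 and 12.7 nRPKM in control Ig without beads, at 17.2, 20.5 and 18.4 at low beads and at 33.7, 31.8 and 32.9 at high beads. Under anti-Ox40 the levels were 12.9, 13.2 and 13.9, 21.3, 23.1 and 22.3, and 45.1, 42.4 and 41.9. The antibody groups overlapped without beads, and at low and high beads all anti-Ox40 libraries were above all control libraries. Eif2s2 rose by 1.29 (SE 0.06, adjusted p = 3.35e-12) with high beads, by 0.24 (SE 0.06, adjusted p = 0.021) with the antibody at low beads and by 0.39 (SE 0.06, adjusted p = 0.000222) at high beads. Its low-bead call was lost with nuclear RNA as a covariate (adjusted p = 0.0688) and with only the groups compared (0.163). Eif2s2 had the smallest adjusted p of all members in the antibody comparison at high beads.

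Eif2s1, the alpha subunit whose phosphorylation stops initiation, was at 34.6, 33.3 and 34.2 nRPKM in the control libraries and at 46.1, 44.1 and 41.1 in those with anti-Ox40 at high beads (0.35, SE 0.06, adjusted p = 0.000386). Its antibody effect at high beads exceeded that without beads by 0.41 (SE 0.08, adjusted p = 0.00645). Eif2a and Eif2d code for proteins that can bind initiator tRNA apart from eIF2. Both rose with high beads, Eif2a by 1.21 and Eif2d by 0.51. Eif2d was at 13.6, 13.3 and 13.1 nRPKM in control Ig without beads, 15.8, 16.6 and 15.6 at low and 19.6, 19.9 and 19.0 at high beads. With anti-Ox40 and high beads Eif2d was at 20.4, 20.2 and 20.2, above all 3 controls by a small margin, and was not called (0.05, SE 0.03, adjusted p = 0.305). Eif2a was at 38.8 ± 1.23 and 38.4 ± 1.60 in these groups, with an antibody change of -0.01 (SE 0.05, adjusted p = 0.891).

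All 5 subunits of Eif2b, the exchange factor that recharges eIF2 with GTP, rose from no to high beads in control Ig, and 4 of 5 rose with the antibody at high beads. Eif2b1 had the largest bead rise, from 10.5, 9.94 and 10.2 to 23.3, 21.2 and 21.4 nRPKM (1.03, SE 0.06, adjusted p = 3.28e-10), with 12.4, 14.9 and 12.6 at low beads. Its anti-Ox40 libraries had 10.3, 9.82 and 9.70, then 14.3, 16.3 and 15.1, and 27.5, 26.5 and 24.9, and it was called at high beads (0.25, adjusted p = 0.0103). Eif2b4 had the smallest bead rise, from 16.3, 16.8 and 17.1 to 24.1, 23.0 and 22.9 (0.45, SE 0.05, adjusted p = 9.65e-08). Its low-bead libraries in control Ig, at 16.9, 18.4 and 16.9, overlapped with those without beads. With the antibody and high beads Eif2b4 reached 28.3, 26.8 and 26.8 (0.22, SE 0.05, adjusted p = 0.0024). The high-bead antibody call of Eif2b5 was lost with no filter (adjusted p = 0.0687) and with quantile normalization (0.0614). With nuclear RNA as a covariate those of Eif2b5 (0.159) and Eif2b1 (0.0516) were lost. Without the libraries with the most B cell RNA, Eif2b5 (0.0996), Eif2b1 (0.0924) and Eif2b4 (0.0534) were not called.

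Eif2b3 was the least abundant subunit and had the largest antibody change of the 5. In control Ig it was at 2.92, 3.05 and 2.74 nRPKM without beads, at 2.71, 3.39 and 2.67 at low and at 4.80, 4.51 and 4.18 at high beads. With anti-Ox40 it was at 3.01, 2.95 and 2.87, at 3.21, 3.11 and 3.44, and at 6.94, 6.72 and 5.80. Levels without and with low beads overlapped in control Ig and lay close together in anti-Ox40, and the high-bead groups of the 2 antibodies were apart (0.44, SE 0.07, adjusted p = 0.000605). The remaining subunit, Eif2b2, was at 34.5 ± 0.64 in the control libraries and 36.9 ± 0.72 in those with anti-Ox40 at high beads and was not called (0.09, SE 0.05, adjusted p = 0.196).

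The 4 kinases that phosphorylate Eif2s1 did not share a direction. Eif2ak2, known as PKR and induced by interferon, was at 2.48, 2.05 and 2.24 nRPKM in control Ig without beads, at 4.26, 2.89 and 3.43 at low and at 4.02, 3.59 and 4.21 at high beads, and rose (0.60, SE 0.12, adjusted p = 0.000151). In anti-Ox40 cultures the values were 2.75, 2.07 and 2.29, 4.71, 3.47 and 3.78, and 4.40, 5.44 and 5.03. Replicate 1 was the highest of its group in 4 of the 6 groups. Eif2ak3, known as PERK and placed in the endoplasmic reticulum, fell from 11.7, 12.8 and 12.4 to 9.23, 9.63 and 8.65 in control Ig (-0.39, SE 0.05, adjusted p = 1.23e-06), with 11.2, 11.8 and 11.3 at low beads. In anti-Ox40 it went from 12.01, 12.48 and 11.99 through 10.99, 11.56 and 11.41 to 9.05, 9.93 and 9.14.

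Eif2ak4, known as GCN2 and activated by uncharged tRNA, had a change of -0.07 (SE 0.06, adjusted p = 0.246) between no and high beads, after a fall at low beads (-0.21, adjusted p = 0.00385). Eif2ak1, the heme-regulated kinase, rose slightly (0.17, SE 0.05, adjusted p = 0.0066), but with quantile normalization its change was -0.00305. None of the 4 kinases was called with the antibody at low or high beads. A list of the integrated stress response, which holds targets and regulators of this pathway, had 11 tested genes. From no to high beads in control Ig 4 were higher and 4 lower, with a median of 0.01, a split near that of all genes (43.4% and 38.9%). The steps between doses went opposite ways. From no to low beads 2 were higher and 8 lower (median -0.27), beside 32.6% and 29.8% of all genes. From low to high beads 8 were higher and 1 lower (median 0.75), beside 40.0% and 32.5%. With the antibody 4 were higher and 1 lower at low beads, and 6 were higher and 0 lower at high beads, with medians of 0.13 and 0.33, where 6.15% and 3.44% of all genes were called at low and 14.4% and 11.6% at high beads. Among them Chac1, a glutathione-degrading enzyme induced by Atf4, was at 8.95 ± 1.00 nRPKM in the control libraries and 13.8 ± 1.66 in those with anti-Ox40 at high beads (0.57, SE 0.11, adjusted p = 0.00158). Sesn2, which restrains mTORC1, was at 17.5 ± 2.75 and 27.6 ± 3.34 (0.63, SE 0.09, adjusted p = 0.00027).

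The scaffold eIF3 had the highest summed RNA level of the complexes, a sum that grows with the number of subunits. Its 13 tested subunits all rose from no to high beads in control Ig, although with quantile normalization the change of Eif3g was -0.08. Their summed level was 1048 ± 18.8 nRPKM without beads, 1487 ± 148 at low and 1945 ± 25.1 at high beads. The subunits differed in when they rose. Eif3e was at 83.5, 76.9 and 82.6 without beads, at 105, 128 and 109 at low and at 112, 109 and 112 at high beads. It rose from no to low beads (0.48, SE 0.06, adjusted p = 1.96e-06), and from low to high beads its change was -0.03 (SE 0.06, adjusted p = 0.676). Eif3f, at 206 ± 11.3, 325 ± 36.4 and 351 ± 6.85 nRPKM in the 3 groups the most abundant subunit, also rose at low beads and was not called from low to high beads (0.11, SE 0.08, adjusted p = 0.2).

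Eif3g, an RNA-binding subunit, had the opposite order. It was at 97.5, 98.2 and 95.1 nRPKM in control Ig without beads, at 85.2, 102 and 87.4 at low beads and at 122, 119 and 118 at high beads. It was not called from no to low beads (-0.08, SE 0.06, adjusted p = 0.192) and rose from low to high beads (0.38, SE 0.06, adjusted p = 1.27e-05). Eif3i had the largest rise of the complex, from 69.7, 65.5 and 66.8 through 106, 126 and 108 to 192, 171 and 173 (1.39, SE 0.07, adjusted p = 1.52e-11). With anti-Ox40 Eif3i was at 65.5, 67.7 and 75.4, at 129, 136 and 132, and at 201, 197 and 183, and was not called at low (0.22, adjusted p = 0.0515) or high beads (0.12, adjusted p = 0.235).

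**Figure D3:**
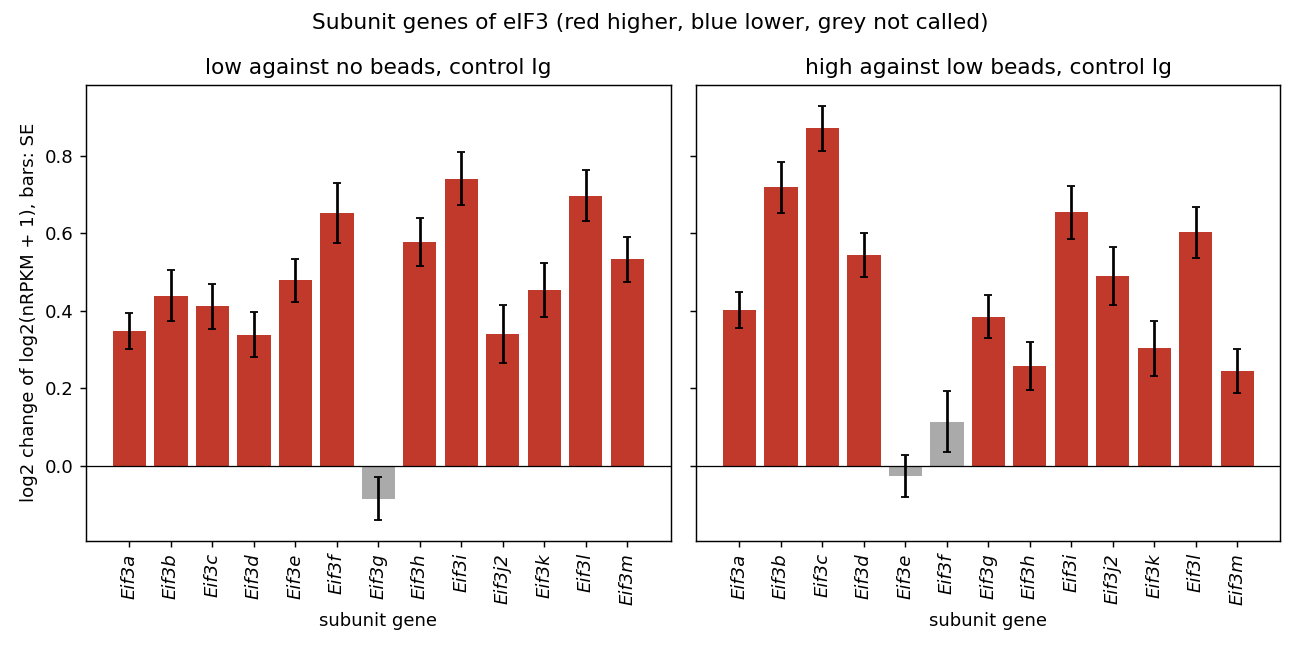
Change of the 13 tested eIF3 subunit RNAs in control Ig from no to low beads (left) and from low to high beads (right), as a difference of log2(nRPKM + 1) with SE bars, red where called higher and grey where not called. Eif3g is grey on the left, and Eif3e and Eif3f are grey on the right.

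With the antibody at high beads 6 subunits rose, namely Eif3a, Eif3b, Eif3c, Eif3d, Eif3g and Eif3j2, and the other 7 were not called. The call of Eif3d was lost with no filter (adjusted p = 0.0531). With nuclear RNA as a covariate Eif3d (0.118) and Eif3j2 (0.0522) were not called. Without the libraries with the most B cell RNA the calls of Eif3b (0.0545), Eif3d (0.158) and Eif3j2 (0.0542) were lost. Eif3c was at 223, 206 and 213 nRPKM in the control libraries and at 284, 262 and 259 in those with anti-Ox40 (0.32, SE 0.06, adjusted p = 0.000985), and at low beads at 113, 129 and 109 against 139, 146 and 132. Without beads it was at 88.1, 89.3 and 84.8 against 87.8, 85.5 and 87.6, so the groups overlapped there only. Eif3a, the large RNA-binding scaffold subunit, was at 116, 118 and 113 in the control libraries and at 143, 136 and 135 in those with anti-Ox40 at high beads (0.25, SE 0.05, adjusted p = 0.00103). At low beads Eif3a was at 85.2, 93.2 and 83.6 against 96.0, 102 and 93.8. Eif3g reached 152, 144 and 140 with anti-Ox40 and high beads (0.28, SE 0.06, adjusted p = 0.00183).

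The 7 subunits that were not called had changes from -0.14 for Eif3f to 0.12 for Eif3i. Eif3f was at 346, 359 and 348 nRPKM in the control libraries and at 307, 327 and 318 in those with anti-Ox40 at high beads, so every anti-Ox40 library was below every control library without a call (adjusted p = 0.195). Eif3h, at 252 ± 9.64 and 230.1 ± 10.6, and Eif3k, at 138.5 ± 2.59 and 127 ± 2.84, gave -0.13 and -0.12. When the subunits were grouped after seeing these values, Eif3a, Eif3b, Eif3c, Eif3d, Eif3g and Eif3i summed to 854 ± 32.5 nRPKM in control Ig and 1013 ± 44.0 in anti-Ox40 at high beads. Eif3e, Eif3f, Eif3h, Eif3k, Eif3l and Eif3m summed to 1086 ± 9.64 and 1031 ± 24.9. This grouping is a description and has no test. Eif3j2 shares 91.8% of its 50-base stretches with other transcripts, Eif3d 37.2% and Eif3h 20.3%, so the values of these 3 are uncertain, and the exons of Eif3d overlap those of the antisense gene Gm17638 over 43.3% of their bases. Eif3j1, which was not tested, shares 50.9% of its stretches with other transcripts, among them those of Eif3j2. Reads of Eif3j1 and Eif3j2 may thus not be told apart.

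The cap-binding genes moved in different ways. Eif4e, the cap-binding protein itself (chromosome 3, 138526191 to 138559696), was at 7.84, 8.12 and 7.66 nRPKM in control Ig without beads, at 10.7, 12.3 and 11.5 at low and at 18.3, 17.3 and 19.2 at high beads. The anti-Ox40 libraries gave 7.56, 7.36 and 8.42, 12.9, 14.7 and 12.9, and 24.6, 23.6 and 24.7. The antibody groups overlapped without beads and were apart at low and high beads. Eif4e rose by 1.12 with high beads (SE 0.06, adjusted p = 5.98e-11) and by 0.39 with the antibody at high beads (SE 0.06, adjusted p = 0.000343), and this antibody effect exceeded the one without beads by 0.41 (SE 0.09, adjusted p = 0.0107).

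Eif4e3, a cap-binding relative of Eif4e that does not bind the Eif4g scaffold in the same way, went up with beads and down with the antibody. In control Ig it was at 9.39, 9.67 and 9.74 nRPKM without beads, at 17.2, 18.4 and 16.2 at low and at 24.9, 28.9 and 27.1 at high beads (1.40, SE 0.08, adjusted p = 1.04e-10). Under anti-Ox40 the levels were 9.94, 8.95 and 9.84, 17.8, 18.4 and 16.9, and 16.8, 22.2 and 19.3. The antibody groups overlapped without and with low beads, and at high beads all 3 anti-Ox40 libraries were below all 3 controls. Eif4e3 (chromosome 6, 99621879 to 99692873) fell with the antibody at high beads by 0.46 on the log2 scale (SE 0.08, adjusted p = 0.000767). The antibody effect at high beads minus that at low beads was -0.49 (SE 0.11, adjusted p = 0.0312). The fall at high beads was called in all 18 fits that left out a library and under all 11 other settings, with values from -0.56 to -0.36. In anti-Ox40 the ratio of Eif4e to Eif4e3 levels was 1.27 ± 0.20 at high beads, and it was 0.680 ± 0.072 in control Ig. Of its 50-base stretches, 12.4% occur in transcripts of other genes.

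Eif4e2, which binds caps and is known for repressing translation, hardly moved. It was at 10.5, 10.7 and 11.3 nRPKM in control Ig without beads, at 10.2, 11.5 and 11.3 at low and at 12.2, 12.3 and 12.5 at high beads, a small rise (0.17, SE 0.05, adjusted p = 0.00331) that was not called with quantile normalization (0.09, adjusted p = 0.0986). Its anti-Ox40 libraries had 10.1, 10.5 and 11.1, 10.6, 11.3 and 11.3, and 11.77, 12.22 and 11.97, and it was not called against control Ig (-0.04 at high beads, adjusted p = 0.619). Without beads the 3 cap-binding genes thus lay close together in control Ig, between 7.66 and 11.3, and at high beads they lay between 12.2 and 28.9.

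Eif4ebp1, which blocks Eif4e until mTORC1 phosphorylates it, had the largest rise of all members. In control Ig (chromosome 8, 27260327 to 27275656) it was at 11.8, 11.3 and 12.7 nRPKM without beads, at 30.2, 34.1 and 25.3 at low and at 133, 119 and 119 at high beads. With anti-Ox40 it was at 12.2, 12.2 and 13.3, at 42.7, 46.7 and 45.4, and at 184, 157 and 168. At both bead doses every anti-Ox40 library exceeded every control library. The gene rose by 3.27 with high beads (SE 0.09, adjusted p = 1.15e-14), and with the antibody by 0.58 at low (SE 0.09, adjusted p = 0.00194) and 0.46 at high beads (SE 0.09, adjusted p = 0.00154). The low-bead call was lost when only the groups compared were fitted (adjusted p = 0.085) and without the libraries with the most B cell RNA (0.46, adjusted p = 0.112).

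Its relatives went the other way. Eif4ebp2 fell from 140.5 ± 4.37 nRPKM to 116 ± 6.97 at low and 105 ± 3.42 at high beads (-0.41, SE 0.05, adjusted p = 1.81e-06). Eif4ebp3 was at 17.8, 18.5 and 18.03, then 16.8, 13.2 and 13.2, then 10.4, 11.3 and 11.3 in control Ig (-0.67, SE 0.09, adjusted p = 1.95e-06). In anti-Ox40 it was at 18.5, 21.6 and 17.1, at 13.0, 14.9 and 13.5, and at 11.6, 12.1 and 11.4. Neither was called with the antibody, and the fall of Eif4ebp3 with high beads was not called with nuclear RNA as a covariate (-0.30, adjusted p = 0.109). Eif4ebp1 therefore made up 6.999% ± 0.29 of the summed level of the 3 genes in control Ig without beads, 18.5% ± 1.48 at low and 51.5% ± 2.18 at high beads. With anti-Ox40 it made up 7.40% ± 0.30, 25.9% ± 1.29 and 60.0% ± 1.75. The level of Eif4ebp1 was 1.52 ± 0.13 times that of Eif4e without beads and 6.77 ± 0.57 times at high beads in control Ig, and 6.99 ± 0.45 times at high beads in anti-Ox40. Eif4ebp3 shares 65.5% of its 50-base stretches with other transcripts, since its exons lie within a longer annotated gene, and its values cannot be assigned to it alone. Eif4enif1, which carries Eif4e into the nucleus, was at 25.6 ± 1.49 and 45.2 ± 2.32 nRPKM without and with high beads in control Ig and at 54.7 ± 5.97 with anti-Ox40 and high beads, and both rises were called.

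**Figure D4:**
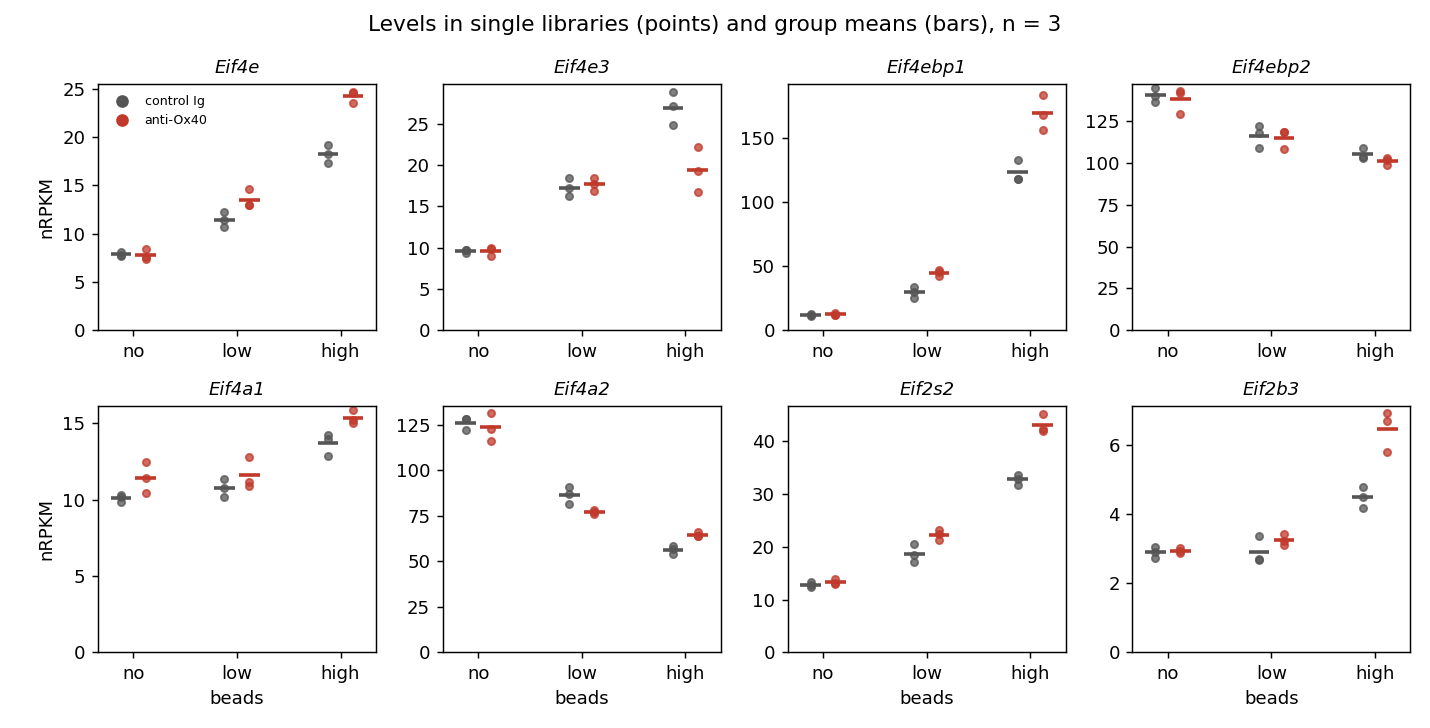
Level in nRPKM of 8 members in each library (points) at no, low and high beads, for control Ig in grey and anti-Ox40 in red, with a bar at the mean of each group of 3. Eif4ebp1 climbs to 119 to 184 at high beads, Eif4a2 falls with beads, and Eif4e3 at high beads lies lower with anti-Ox40 than with control Ig.

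The helicase that unwinds the mRNA before scanning is coded by Eif4a1 and Eif4a2, and the 2 RNAs moved in opposite directions. Eif4a2 (chromosome 16, 23107468 to 23114132) was at 128, 128 and 122 nRPKM in control Ig without beads, at 87.2, 81.4 and 91.1 at low and at 56.7, 53.9 and 58.3 at high beads (-1.15, SE 0.05, adjusted p = 2.46e-12). In anti-Ox40 cultures the values were 123, 132 and 116, 77.0, 78.2 and 75.9, and 66.0, 64.0 and 64.1. All anti-Ox40 libraries thus lay below the controls at low beads and above them at high beads. The test called it lower at low beads (-0.16, SE 0.05, adjusted p = 0.0458) and higher at high beads (0.20, SE 0.05, adjusted p = 0.00697), and the 2 effects differed by 0.36 (SE 0.07, adjusted p = 0.0136). The low-bead fall was called in 4 of 18 fits that left out a library. It was lost with no filter (adjusted p = 0.0805), with no trend (adjusted p = 0.0594), with a replicate block (adjusted p = 0.0502) and with only the groups compared (adjusted p = 0.18). The high-bead rise was lost with quantile normalization (0.16, adjusted p = 0.0783).

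Eif4a1 (chromosome 11, 69666936 to 69672423) was at 10.2, 10.3 and 9.84 nRPKM in control Ig without beads, at 10.2, 10.8 and 11.3 at low and at 14.0, 14.2 and 12.9 at high beads (0.40, SE 0.06, adjusted p = 2.61e-05). The anti-Ox40 libraries gave 11.4, 12.5 and 10.4, 11.2, 12.8 and 10.9, and 15.9, 15.2 and 14.99, and no antibody call was made (0.15 at high beads, SE 0.06, adjusted p = 0.0941). The ratio of Eif4a2 to Eif4a1 was 12.5 ± 0.09 without beads, 8.05 ± 0.50 at low and 4.12 ± 0.38 at high beads in control Ig, and 10.8 ± 0.30, 6.66 ± 0.46 and 4.21 ± 0.06 in anti-Ox40. Eif4a1 shares 28.4% of its 50-base stretches with other transcripts, 24.3% with pseudogenes, and Eif4a2 shares 13.6%, so the level of Eif4a1 in particular is uncertain. Eif4a3, the helicase of the exon junction complex, was at 29.0, 29.4 and 27.9, then 30.1, 38.2 and 31.5, then 45.9, 44.0 and 46.5 in control Ig (0.64, SE 0.07, adjusted p = 1.91e-07). Under anti-Ox40 the levels were 25.7, 26.3 and 25.5, 36.5, 39.8 and 38.3, and 50.8, 52.3 and 46.9, and it was not called.

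The helicase helpers Eif4b and Eif4h rose with beads. Eif4h was at 87.0, 84.6 and 84.0 nRPKM without beads, at 109, 124 and 108 at low and at 160.4, 162 and 163 at high beads in control Ig (0.92, SE 0.05, adjusted p = 1.99e-11). Its anti-Ox40 libraries had 81.0, 79.3 and 85.1, 126, 128 and 124, and 167, 169 and 165, and it was called at low beads only (0.15, SE 0.05, adjusted p = 0.0491). The low-bead call was lost with a pseudocount of 0.1 (adjusted p = 0.051), with no filter (0.0847), with no trend (0.0621) and with only the groups compared (0.244). The difference between the antibody effects at low and high beads was not called (adjusted p = 0.368). Eif4b was at 100.0, 95.5 and 101, then 127, 142 and 124, then 153, 153 and 155 in control Ig (0.63, SE 0.05, adjusted p = 5.68e-09), and at 158 ± 1.57 in anti-Ox40 with high beads, which was not called.

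The scaffold genes of the Eif4g family had smaller changes with beads. Eif4g1 was at 85.1, 90.7 and 85.8 nRPKM without beads, at 97.0, 108 and 96.9 at low and at 133, 133 and 128 at high beads in control Ig (0.59, SE 0.05, adjusted p = 1.44e-08). With anti-Ox40 it was at 88.8, 86.2 and 84.3, at 108, 113 and 103, and at 168, 154 and 155 (0.27 at high beads, SE 0.05, adjusted p = 0.00107). Eif4g2, which lacks the site for Eif4e, was at 137, 138 and 133, at 134, 155 and 134, and at 169, 157 and 158 in control Ig. It was called higher with high beads (0.24, SE 0.06, adjusted p = 0.000969), but with quantile normalization it was called lower (-0.20). With anti-Ox40 Eif4g2 was at 135, 130 and 134, at 150, 152 and 145, and at 204, 195 and 179, and rose at high beads (0.25, SE 0.06, adjusted p = 0.00384). Eif4g3 was at 32.2, 34.2 and 33.6, at 32.6, 30.4 and 32.0, and at 30.9, 30.7 and 31.4 in control Ig, the smallest called fall of the set (-0.10, SE 0.04, adjusted p = 0.0341), with a change of 0.03 when nuclear RNA was a covariate. In anti-Ox40 cultures the values were 33.6, 33.6 and 31.7, 30.0, 30.8 and 28.2, and 34.8, 32.7 and 33.0, with no antibody call.

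Of the factors that act late, Eif5a changed most with beads. Eif5a, which carries the modified amino acid hypusine and acts mainly in elongation, was at 81.8, 78.5 and 79.9 nRPKM without beads, at 128, 156 and 124 at low and at 268, 239.6 and 243 at high beads in control Ig (1.63, SE 0.08, adjusted p = 2.77e-11). The anti-Ox40 libraries gave 80.0, 79.3 and 91.8, 153, 172 and 157, and 343, 314 and 299 (0.35 at high beads, SE 0.08, adjusted p = 0.00658). Its rare paralog Eif5a2 was at 4.25, 3.76 and 3.83, at 3.78, 3.59 and 4.06, and at 3.82, 3.54 and 3.42 in control Ig, with overlapping bead groups (-0.11, SE 0.09, adjusted p = 0.271). With anti-Ox40 Eif5a2 was at 4.30, 3.46 and 3.92, at 4.82, 3.83 and 4.13, and at 5.81, 4.65 and 4.66, and rose at high beads (0.39, SE 0.09, adjusted p = 0.0043).

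Eif5b, the GTPase that joins the large subunit, was at 16.8, 17.3 and 17.0 nRPKM without beads, at 16.5, 18.6 and 17.0 at low and at 24.4, 23.7 and 23.8 at high beads in control Ig, so it was not called from no to low beads (0.02, adjusted p = 0.7) and rose from low to high beads (0.45, SE 0.05, adjusted p = 3.52e-07). Under anti-Ox40 the levels were 15.6, 16.5 and 16.3, 19.4, 20.1 and 19.4, and 30.6, 27.9 and 27.6, and it rose at low (0.17, adjusted p = 0.0345) and high beads (0.25, SE 0.05, adjusted p = 0.0011). The low-bead call of Eif5b was lost with no filter (adjusted p = 0.0561) and with only the groups compared (0.181). Eif5, which triggers GTP hydrolysis on eIF2, was at 61.1 ± 0.70 without and 67.6 ± 1.16 with high beads in control Ig. It was called higher (0.14, SE 0.04, adjusted p = 0.00386), but with quantile normalization it was called lower (-0.22). Anti-Ox40 with high beads gave 77.8 ± 3.70 (0.20, SE 0.04, adjusted p = 0.00211).

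Eif6, which keeps the large subunit from joining too early, was at 38.1, 38.0 and 36.2 nRPKM without beads and at 37.1, 43.5 and 39.1 at low beads in control Ig, and these groups overlapped (0.09, SE 0.06, adjusted p = 0.237). At high beads it was at 78.8, 73.1 and 70.9 (0.88 against low beads, SE 0.06, adjusted p = 6.71e-09). Its anti-Ox40 libraries had 34.2, 35.0 and 38.7, 47.1, 49.2 and 48.6, and 99.9, 92.8 and 88.2. At low beads every anti-Ox40 library was above every control library (0.27, SE 0.06, adjusted p = 0.0202), as at high beads (0.33, SE 0.06, adjusted p = 0.00135). The low-bead call of Eif6 was lost with nuclear RNA as a covariate (adjusted p = 0.0792) and with only the groups compared (0.122).

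The promoters of 3 members are shown because their RNAs moved differently: Eif4e rose with beads and with the antibody, Eif4a1 rose less, and Eif4a2 fell. The lines give the 250 bases before the start in RefSeq (build GRCm38.p6), 5′ to 3′ on the strand of the gene, and capitals mark the hexamer CACGTG, known as an E-box.
Eif4e, chr3:138527018-138527267, plus strand, the downstream of 2 listed starts: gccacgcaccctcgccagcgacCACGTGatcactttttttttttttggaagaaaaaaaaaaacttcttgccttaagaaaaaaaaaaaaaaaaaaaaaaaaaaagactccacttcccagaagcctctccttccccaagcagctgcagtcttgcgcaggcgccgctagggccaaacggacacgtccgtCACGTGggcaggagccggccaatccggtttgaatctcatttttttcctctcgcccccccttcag
Eif4a1, chr11:69672424-69672673, minus strand: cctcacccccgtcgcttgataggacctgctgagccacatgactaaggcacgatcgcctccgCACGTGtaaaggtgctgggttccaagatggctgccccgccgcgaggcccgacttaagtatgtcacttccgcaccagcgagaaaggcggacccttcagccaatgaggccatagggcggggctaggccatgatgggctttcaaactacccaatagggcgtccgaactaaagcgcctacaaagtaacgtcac
Eif4a2, chr16:23107218-23107467, plus strand: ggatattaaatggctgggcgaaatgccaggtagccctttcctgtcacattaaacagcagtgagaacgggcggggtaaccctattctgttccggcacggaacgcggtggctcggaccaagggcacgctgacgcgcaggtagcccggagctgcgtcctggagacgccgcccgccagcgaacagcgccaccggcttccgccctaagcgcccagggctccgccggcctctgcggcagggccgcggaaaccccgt

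The Eif4e window holds CACGTG at 228 and at 64 bases before the start, the Eif4a1 window holds it at 189 bases, and these letters are not in the Eif4a2 window or in that of the other Eif4e start. Over windows of 300 bases, 250 before to 50 after a start, with both strands searched, RefSeq entries matched 42 of the 54 members with 55 windows. CACGTG was in 21.8% of the member windows, for 10 members, and in 7.15% of all 32851 windows. The 10 were Eif1b, Eif3a, Eif3f, Eif3k, Eif4a1, Eif4e, Eif4g1, Eif4h, Eif5a and Eif5a2. Of these 10, 9 rose and 0 fell from no to high beads in control Ig, with a median of 0.76, and of 30 tested members without it 24 rose and 4 fell, with a median of 0.62. Eif5a2, with 2 matches in its window, had a change of -0.11 in this comparison, and Eif2s2, with 0 matches, rose by 1.29. With the antibody at high beads 5 of the 10 and 15 of the 30 rose. The hexamer CCGGAA, the core bound by ETS factors, was in 47.3% of the member windows and 14.9% of all windows, TGACGT in 18.2% and 7.51%, and CCAAT in 27.3% and 37.4%. These shares are descriptions of letters and carry no test.

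Across the 18 libraries the members most like Eif4e in log2(nRPKM + 1) were Eif2s2 (Pearson r = 0.995), Eif3a and Eif5a (both 0.992). Those most like Eif4ebp1 were Eif5a (0.995), Eif1ax and Eif3b (both 0.994). The members most like Eif4a1 were Eif2b4 (0.911), Eif1ad (0.906) and Eif4g1 (0.903). Eif4a2 was most like Eif4ebp3 (0.951), Eif4ebp2 (0.904) and Eif2ak3 (0.881), and least like Eif2a (-0.983). These correlations describe libraries that share the bead doses and their scaling.

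Other genes of translation were counted in the same model, in which, over all genes, 43.4% rose and 38.9% fell with high beads in control Ig. With the antibody 6.15% of all genes were higher and 3.44% lower at low beads, and 14.4% and 11.6% at high beads. All 22 tested genes for cytosolic aminoacyl-tRNA synthetases, which load tRNAs with amino acids, rose from no to high beads in control Ig, with a median of 1.13. With the antibody 15 were higher and 0 lower at low beads and 18 were higher and 1 lower at high beads, with medians of 0.21 and 0.30. Gars, which loads glycine, was at 158 ± 10.2 nRPKM in the control libraries and 221 ± 13.3 in those with anti-Ox40 at high beads (0.48, SE 0.06, adjusted p = 0.000102). Of 8 tested elongation factor genes 7 rose and 0 fell with high beads, and 2 rose and 0 fell with the antibody at high beads, a total near the 26.0% of all genes called there. Eef2, the translocase, rose from 861 ± 16.0 to 1769.7 ± 47.4 nRPKM with beads and was at 1706 ± 31.1 with anti-Ox40 and high beads (-0.05, SE 0.07, adjusted p = 0.655).

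Of 8 tested genes of termination and recycling, 6 rose and 1 fell with high beads, and 5 rose and 0 fell with the antibody at high beads. Etf1, the release factor, was at 84.2 ± 3.54 nRPKM in the control libraries and 109 ± 7.07 in those with anti-Ox40 at high beads (0.36, SE 0.06, adjusted p = 0.000326). Among 8 genes for poly(A)-binding proteins and their partners, 6 rose and 0 fell with high beads, and 3 rose and 1 fell with the antibody at high beads. Larp1, which binds mRNAs of the translation machinery, was at 48.7 ± 2.05 and 63.3 ± 4.59 (0.37, SE 0.05, adjusted p = 0.000213).

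The regulators of these steps had counts near those of all genes. Of 12 regulators of the cap complex 6 rose and 4 fell with high beads, and 3 rose and 1 fell with the antibody at high beads, where all genes had 43.4% and 38.9%, and 14.4% and 11.6%. Gigyf1, a partner of Eif4e2, fell from 49.8 ± 0.87 to 17.7 ± 0.72 nRPKM with high beads (-1.44, SE 0.05, adjusted p = 3.14e-13). Of 18 tested mTORC1 pathway genes 9 rose and 5 fell with high beads, and 3 rose and 1 fell with the antibody at high beads. Ddit4, an inhibitor of mTORC1, rose from 15.7 ± 1.51 to 189 ± 6.81 nRPKM with high beads (3.51, SE 0.10, adjusted p = 3.34e-14). Sesn1, another inhibitor, fell from 58.6 ± 4.67 to 11.5 ± 1.68 (-2.26, SE 0.11, adjusted p = 1.44e-11) and was lower still with anti-Ox40, at 7.33 ± 0.80 (-0.58, SE 0.11, adjusted p = 0.0014).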

How the data were processed

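RNA of 18 libraries was measured by sequencing, and the authors deposited 1 table of nRPKM with 36528 entries, 6 of them without a symbol. The unit, from the name the authors gave the deposited values, was read as RPKM (reads per gene length and library size) with a further normalization. For its scaling, the counting and the annotation no tool was given in the sources used here. For alignment, the submitters' processing notes list the aligner GSNAP and the build GRCm38. Groups follow the sample labels.

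Values were taken as log2(nRPKM + 1), genes with an nRPKM of at least 1 in 3 or more libraries were kept, and a model of 6 group means (12 residual degrees of freedom) was fitted with limma 3.58.1 in R 4.3.3, with a mean-variance trend, 2-sided tests and Benjamini-Hochberg adjustment over all 13075 genes. The script was tested on simulated data. Reads behind an nRPKM were recovered from the steps of values of up to 5 reads of short RNAs, of which 100.0% were whole within 0.1 read. Depth and counting error of single genes do not enter the model. Shared 50-base stretches come from the GENCODE M21 transcripts.

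Members with values in every library were, per family, those with the highest and lowest bead change (all members of small families) and the 10 with the smallest adjusted p among antibody calls. Up to 3 genes of each list of other translation genes, those with the largest bead change, could be named. The members and lists were chosen with earlier results of these data known. Alternatives changed the pseudocount, the filter, the normalization, the trend, the samples fitted, a replicate block and each library in turn. A count test was not used, since the values are not counts.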

Additional observations from a re-analysis of the deposited data

Results flagged for a closer look

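The effect of anti-Ox40 differed between bead doses by the test of the difference in limma, with Benjamini-Hochberg adjustment, and each value is the antibody effect at high beads minus that at the lower dose on the log2 scale. Between high and low beads this was 0.36 for Eif4a2 (adjusted p = 0.0136), the helicase RNA that fell with beads, and -0.49 for Eif4e3 (adjusted p = 0.0312), the cap-binding relative.

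Between high and no beads the difference was positive for 19 members. Among the Eif1, Eif2 and Eif2b genes it was 0.32 for Eif1a (adjusted p = 0.0417), 0.28 for Eif1ax (0.0272), 0.41 for Eif2s1 (0.00645), 0.33 for Eif2s2 (0.0175), 0.43 for Eif2b3 (0.0198) and 0.27 for Eif2b4 (0.0161), with adjusted p in brackets. The eIF3 subunits had 0.27 for Eif3a (adjusted p = 0.0179), 0.30 for Eif3b (0.0495), 0.33 for Eif3c (0.0208), 0.36 for Eif3g (0.0119) and 0.35 for Eif3j2 (0.0453). Among the Eif4 genes it was 0.23 for Eif4a2 (adjusted p = 0.0442), 0.41 for Eif4e (0.0107), 0.29 for Eif4g1 (0.0198) and 0.29 for Eif4g2 (0.0299), and -0.46 for Eif4e3 (0.0204), the only negative value of the 20. Late factors had 0.24 for Eif5 (adjusted p = 0.0159), 0.41 for Eif5a2 (0.0472), 0.32 for Eif5b (0.00841) and 0.39 for Eif6 (0.0146). Of the 20 differences, 6 were called in all 18 fits that left out a library.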

How the results depend on the processing

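The bead comparisons and the antibody comparison at high beads kept their number of called members within 1.5 times under the alternatives that were run, and 16 of the 27 antibody calls at high beads were made under all of them. The 13 antibody calls at low beads became 5 with no filter, 7 with no trend, 2 with nuclear RNA as a covariate, and 0 both without the libraries with the most B cell RNA and with only the groups compared. The 20 differences of antibody effects between high and no beads became 13, 6 and 0 with no filter, nuclear RNA and without those B cell libraries. The 2 between high and low beads became 1, 4, 0 and, with only the groups compared, 1. The nuclear RNA and B cell settings were chosen after seeing the data, and the B cell setting leaves out replicate 3 of every group. Leaving out 1 library at a time gave 1 to 30 calls at low beads, and 6 to 25, 1 to 6 and 0 to 20 differences of effects for high minus no, high minus low and low minus no beads. From no to high beads in control Ig the direction reversed with quantile normalization for Eif2ak1 (-0.00305), Eif3g (-0.081), Eif4g2 (-0.20) and Eif5 (-0.22), and with nuclear RNA for Eif2ak1 (-0.030), Eif3g (-0.018), Eif4g2 (-0.037) and Eif4g3 (0.025), and the cause was not tested. With a replicate block, 27 members were called with the antibody at high and 13 at low beads, 48 with high against no beads in control Ig, and 22, 3 and 0 for the differences of effects, while Eif4a2 was no longer called at low beads (adjusted p = 0.0502) or for high minus no beads (adjusted p = 0.0506). Replicate numbers were given in accession order and the labels name no pairing, so the main model does not use them. Once group means were taken off, same-numbered libraries correlated at -0.158 to 0.354 over 45 pairs. Outside their own group, 18 of 18 libraries correlated best with a library of their own number. Replicate 3 had the most B cell RNA in every group. Whether same-numbered libraries share a source was not tested. Depth was not weighed gene by gene, and an nRPKM of 1 over 1 kb stands for 26.4 to 46.0 reads per library.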
